A study of Homo sapiens with 115 samples.

Results

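The repopulated cells of the p53+/+ line were set beside its unirradiated cells to see which expression differences remained once growth had resumed. Members were taken by their labels, as every cell with the genotype p53plus and the stage [R] or [N], which gave 11 [R] cells and 6 [N] cells, 17 in all, beside 98 other cells of the series. HCT116 is a human colorectal cancer cell line with intact p53, and the p53-/- cells of the series come from a derivative that lacks it. Each library held the amplified full-length cDNA of 1 cell aspirated under a microscope, with no molecular identifiers. The [R] cells carried the labels 8 Gy and day 30. The [N] cells carried the label day 0 and also 8 Gy, whereas the study's text calls them unirradiated. The stages between them were pre-budding giant cells [P], budding giant cells [B] and newly budded progeny [S]. No label named separate cultures, so each stage of a line was 1 sample. Differences between [R] and [N] within the p53+/+ line therefore have no test, and the ranges given are ranges over single cells.

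Total counts ran from 12486187 to 51580888 in the [N] cells and from 21902154 to 67545766 in the [R] cells, and 13715 to 15004 and 12477 to 15707 genes had a count. The titles of the [R] cells shared a prefix that no [N] title had, so stage and title prefix cannot be told apart. The [N] cell whose title prefix differed from those of the other [N] cells (replicate 6) had the deepest library of its group and the lowest likeness to it, a median Pearson r of 0.78 in log2(CPM + 1) against 0.86 to 0.90 for the other [N] cells. In some genes the [N] cells fell into 2 sets. KRT8 had 272 to 712 CPM in replicates 2, 3 and 4 and 2774 to 3479 CPM in replicates 1, 5 and 6. SLC2A1 had 22.3 to 50.7 CPM and 112.1 to 193.2 CPM in these sets, and LGALS1 1376 to 1567 CPM and 616 to 989 CPM. The [N] medians of such genes lie between the sets, at a level that no [N] cell had. Among [R] cells the median r was 0.69 to 0.83, and replicate 1 was the lowest. All 10 epithelial markers were measured. None of 10 fibroblast and 11 blood cell markers was, with COL1A2, DCN, LUM, PTPRC, CD3E, CD3D, MS4A1 and HBB at 0 in all 17 cells and none above 10.2 CPM in any cell.

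p53 is a transcription factor that is stabilised after DNA breaks and switches on genes for cell cycle arrest, DNA repair and cell death, together with MDM2, the ubiquitin ligase that marks p53 itself for degradation. In cells that resume division this response is normally turned down, mainly through MDM2 and the phosphatase PPM1D. CDKN1A, which encodes the CDK inhibitor p21, is the target most closely tied to arrest.

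Differences are given as log2 of the ratio of the [R] to the [N] median over cells, each taken as CPM (counts scaled to a fixed total per cell) plus 1. Of 10086 genes measured, which had a mean of at least 5 CPM over the 17 cells, 1710 (17%) had a median at least 2-fold higher in [R] and 668 (6.62%) a median at least 2-fold lower. The median difference of all measured genes was 0.22. With TMM scaling that median was 0.00 and the split was 1122 higher and 1246 lower, so 47.4% of the genes past 2-fold were higher in place of 71.9%. The filter also bears on the split. Its mean is over 17 cells, 11 of them [R], so genes high only in [R] pass more easily than genes high only in [N]. With no filter 2015 genes were higher and 1367 lower, so 59.6% were higher. Differences of a gene list are therefore to be read against 0.22. A stricter count took only genes in which every [R] cell lay on one side of every [N] cell and the medians differed by at least 2-fold. It held 43 genes higher in [R] (0.426%) and 25 lower (0.248%). Without [N] replicate 6 these shares were 1.22% and 1.05%, and 42 of the 43 and 24 of the 25 remained. Without [N] replicate 1 they were 1.12% and 0.565%. Without [R] replicate 9 the first was 0.664%, and without [R] replicate 1 the second was 0.377%.

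p53 target genes stood highest among the lists. Of 30 measured members 21 were at least 2-fold higher in [R] and 0 lower, against 17% and 6.62% of all genes, and their median difference was 1.58. In the p53-/- line the same members had a median difference of 0.10, with 3 past 2-fold higher and 3 lower, where 8.11% and 5.76% of all genes were. The counts of 21 and 0 were also obtained without [N] replicate 6, and were 19 and 0 with TMM scaling.

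Among the arrest genes, CDKN1A (GRCh38.p14 chr6:36676463-36687332) had 35.6, 72.4 and 255 CPM as the lowest, median and highest value in [N] cells and 169, 1145 and 2483 CPM in [R] cells. The difference was 3.97, and 10 of 11 [R] cells lay above every [N] cell, the exception being [R] replicate 5. It was 4.65 without [N] replicate 1, 4 or 5. Summed over cells, CDKN1A had 79.6 CPM in [N] (95% exact Poisson interval 78.2 to 81.1) and 1297 CPM in [R] (1294 to 1300). These intervals cover the counting of reads only. Without molecular identifiers they do not cover the sampling and amplification of molecules, nor the spread between cells. In p53-/- cells its medians were 83.8 CPM in [N] and 100.1 CPM in [R]. BTG2, an antiproliferative gene, had a median of 11.7 CPM in [N] and 100.2 CPM in [R], with 10 of 11 [R] cells above the [N] range of 0.310 to 17.6 CPM. PLK3 and PLK2, stress-responsive kinases, differed by 2.61 and 2.58, but only 5 and 4 [R] cells lay above all [N] cells.

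**Figure D1:**
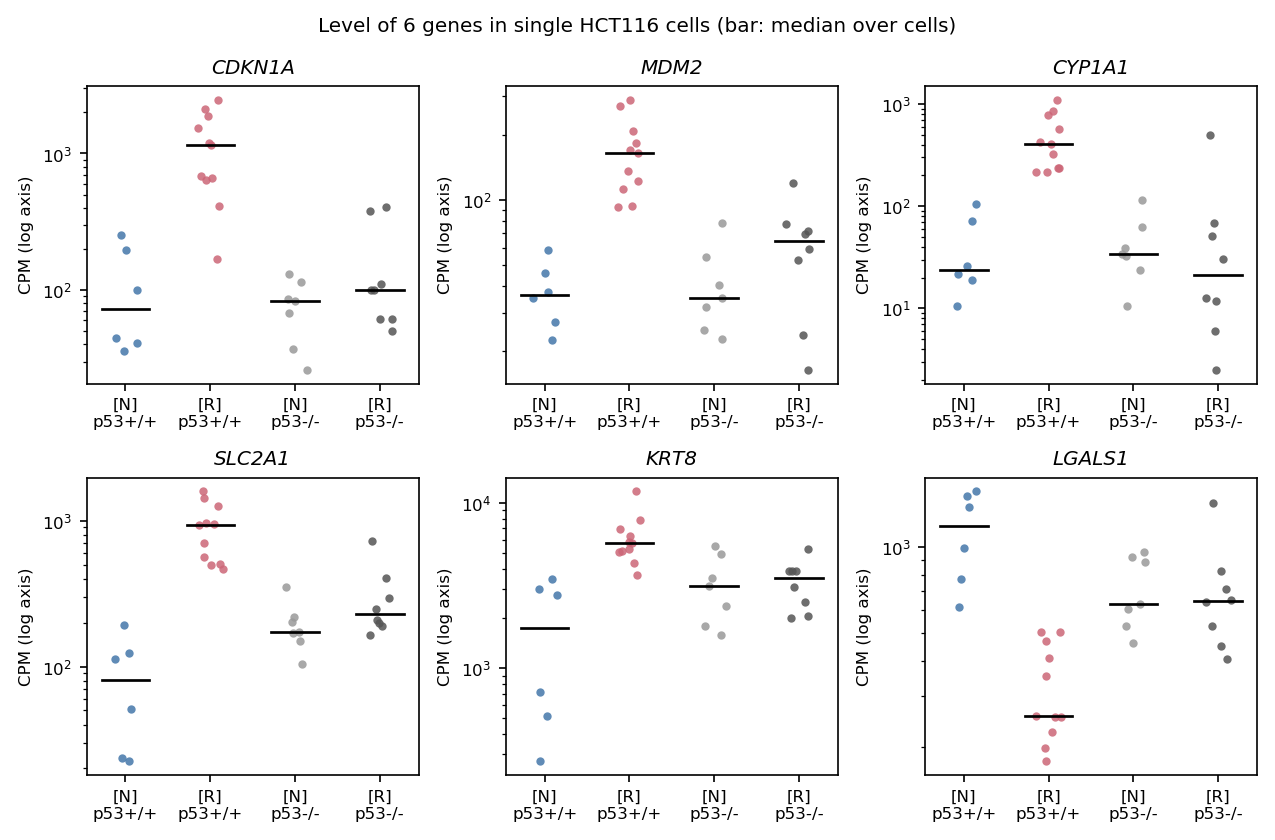
CPM on a log axis of 6 genes in single cells, with 1 point per cell and a bar at the median, for [N] and [R] of the p53+/+ and the p53-/- line. CDKN1A, MDM2, CYP1A1, SLC2A1 and KRT8 are higher and LGALS1 lower in p53+/+ [R] than in p53+/+ [N], with overlap for CDKN1A alone, while the 2 stages of the p53-/- line overlap in all 6 panels.

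The feedback regulators were on the same side. MDM2 had 22.6, 36.4 and 58.5 CPM in [N] and 93.1, 164 and 290.4 CPM in [R], a difference of 2.15 with no overlap between the groups, and its difference in the p53-/- line was 0.85. PPM1D had medians of 32.4 CPM in [N] and 100.4 CPM in [R], a difference of 1.60, with 9 of 11 [R] cells above all [N] cells. Of the targets that act in cell death, TNFRSF10B, a receptor for the death ligand TRAIL, had 27.7, 48.1 and 85.5 CPM in [N] and 139, 246 and 335 CPM in [R], with no overlap. It was also past 2-fold higher in the p53-/- line (1.14), against 2.33 in the p53+/+ line. The groups were also apart for FDXR, a mitochondrial reductase, at 5.24 to 48.1 CPM in [N] and 83.5 to 331 CPM in [R]. The death receptor gene FAS differed by 1.55, and the BCL2-family members BBC3 (PUMA) and BAX differed by 1.64 and 1.43, with 7 and 3 of 11 [R] cells above all [N] cells. Leaving out 1 cell moved these from 0.97 to 2.96 and from 0.67 to 3.16, the higher value in each case without [N] replicate 1, 5 or 6 and the lower without [N] replicate 2, 3 or 4. Repair genes among the targets, RRM2B, POLH and XPC, differed by 1.87, 1.46 and 1.26. CCNG1, TIGAR, TRIAP1 and RPS27L stayed within 2-fold, at 0.73, 0.38, 0.17 and 0.12.

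Taken as 1 level per cell, the mean of log2(CPM + 1) over the 30 members, p53 targets were at 4.29, 4.49 and 5.16 (lowest, median, highest) in [N] and at 4.78, 6.25 and 7.01 in [R]. Of the 11 [R] cells 10 lay above every [N] cell, and [R] replicate 1 was the exception. The stages in between, compared with the same [N] cells, had medians of 6.70 in [P], 6.35 in [B] and 5.45 in [S]. For CDKN1A the medians were 2435 CPM in [P], 1485 CPM in [B], 641 CPM in [S] and 1145 CPM in [R].

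**Figure D2:**
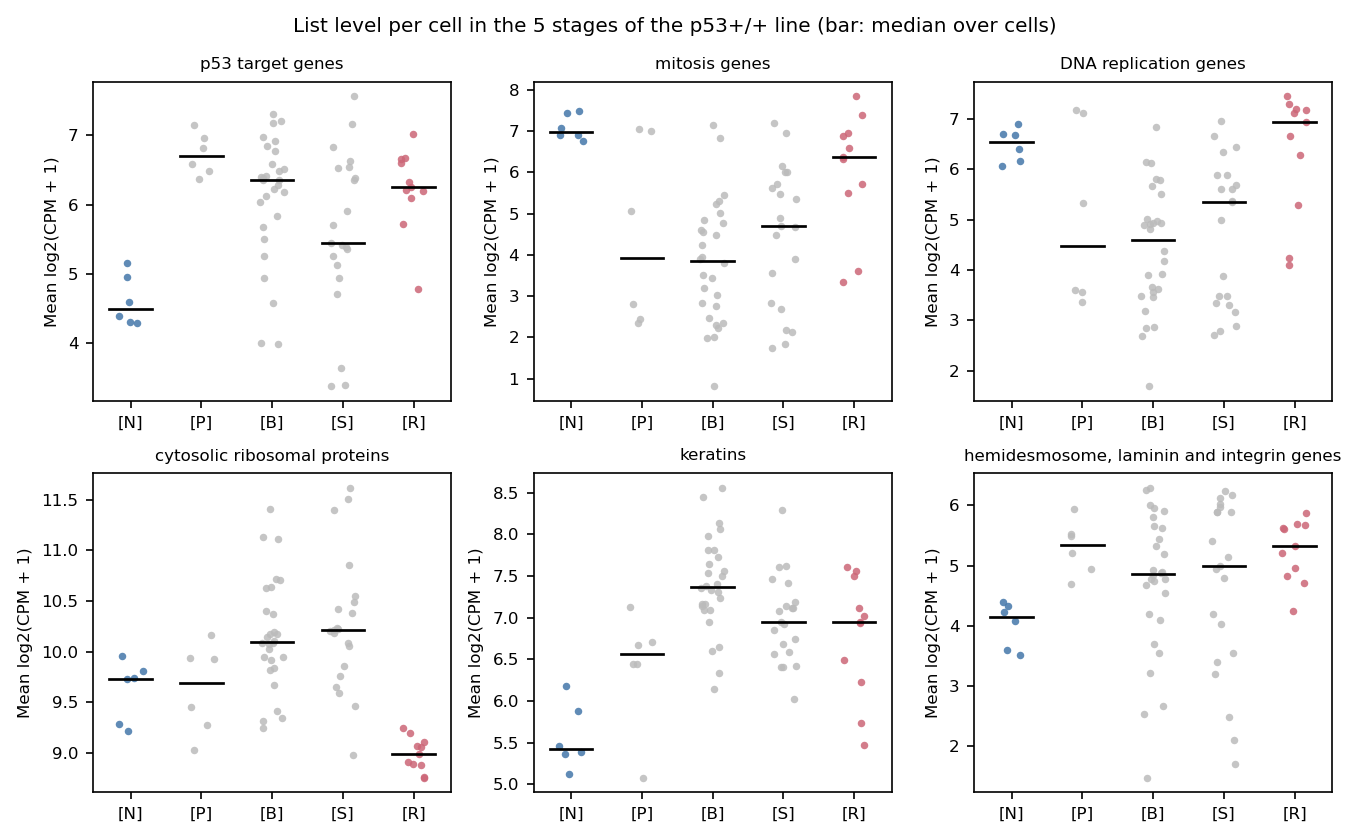
Mean log2(CPM + 1) over the measured members of 6 gene lists, 1 point per cell with a bar at the median, in the 5 stages of the p53+/+ line. The p53 target level has its [N] median at 4.49 and its [R] median at 6.25, and the cytosolic ribosomal protein level has its lowest median, 9.0, in [R].

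Of the cell cycle lists, mitosis genes had a median below 0 against [N], while DNA replication genes stayed near all genes. Of 47 mitosis genes, which act from entry into mitosis to the separation of chromosomes, 11 were at least 2-fold lower in [R] and 0 higher, with a median difference of -0.73 (p53-/- line, -0.33). With TMM scaling 19 were lower. The 45 DNA replication genes had a median difference of 0.25, close to that of all genes, and 0.02 with TMM scaling. Of them 7 (15.6%, against 17% of all genes) were higher and 1 lower, or 11 and 1 without [N] replicate 6. The anaphase inhibitor PTTG1 (securin) had 285, 562 and 768 CPM in [N] and 22.2, 205 and 268 CPM in [R], with no overlap. CCNB1, the cyclin that drives entry into mitosis, had medians of 828 and 259.8 CPM, and 8 of 11 [R] cells lay below all [N] cells. Its difference was -1.21 in the p53-/- line, with no overlap there, and -1.67 in the p53+/+ line. Further members past 2-fold were CENPE (-2.13), a kinesin of the kinetochore, CENPA (-1.95), the centromeric histone, CKS2 (-1.66) and UBE2C (-1.64). By medians MKI67, TPX2 and ANLN were at 0.16, 0.54 and 0.62, but by means of log2(CPM + 1) they were at -0.79, -0.24 and -0.40, so their direction depended on the summary. The licensing inhibitor GMNN differed by -1.05. E2F1 (1.66), POLD1 (1.36) and CCNE2 (1.21), which serve entry into and progress through S phase, had higher medians in [R]. Of 11 [R] cells 7, 3 and 6 lay above all [N] cells, and 1, 0 and 2 lay below them. The CCNE2 difference was as low as 0.26 in the alternative settings. Leaving out 1 [N] cell gave 1.04 to 2.76 for E2F1, the higher value without [N] replicate 1, 5 or 6 and the lower without [N] replicate 2, 3 or 4.

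The [R] cells differed widely among themselves in these lists. The mitosis level was 6.77 to 7.50 in [N] cells and 3.33 to 7.85 in [R] cells. By this measure 7 [R] cells lay below all [N] cells, 3 within their range and 1 above. [R] replicates 3 and 2 were the lowest, at 3.33 and 3.60. Their DNA replication levels were 4.10 and 4.23, against 5.29 to 7.45 in the other [R] cells and 6.06 to 6.90 in [N]. Their p53 target levels, 6.25 and 6.67, were near the [R] median. Of the other stages, [P], [B] and [S] had median mitosis levels of 3.93, 3.85 and 4.71. Over the 11 [R] cells the p53 target level and the mitosis level had a Spearman rho of -0.42 and a Pearson r of -0.22, given as a description of cells that share a stage and differ in depth. For the mitosis and DNA replication levels these were 0.95 and 0.96, so the 2 lists went together from cell to cell. [R] replicates 7 and 11 had p53 target levels of 6.10 and 6.60 together with mitosis levels of 7.85 and 7.40, at or above most [N] cells. The proliferation marker MKI67 had 100.9, 159 and 324 CPM in [N] and 3.8, 178 and 342 CPM in [R], with 3 [R] cells below all [N] cells.

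**Figure D3:**
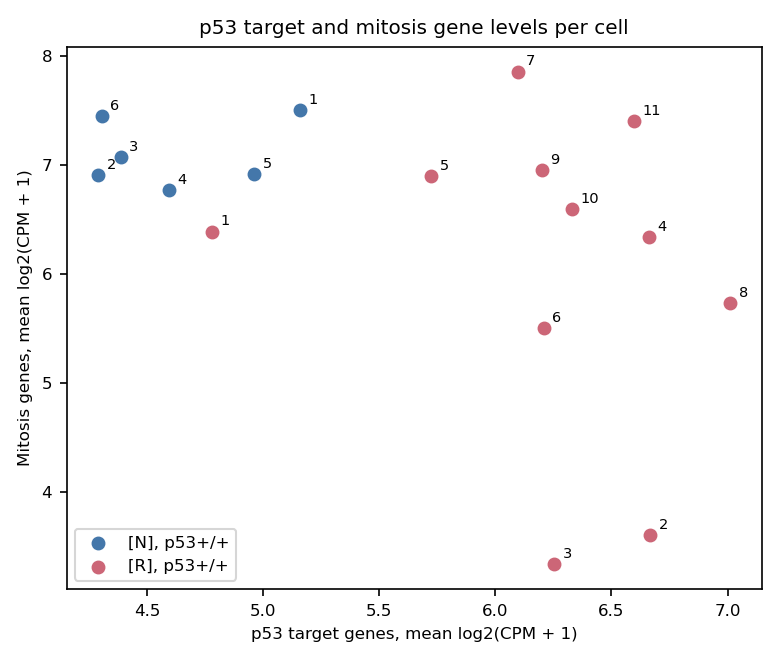
Level of p53 target genes (x axis) against that of mitosis genes (y axis), both as mean log2(CPM + 1), for the 6 [N] and 11 [R] cells of the p53+/+ line, numbered by replicate. All [R] cells but replicate 1 lie to the right of the [N] cells, and they spread from 3.33 to 7.85 on the y axis.

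Among the other cell cycle inhibitors, CDKN2A, which encodes p16 and ARF, had 75.1, 114.9 and 126.6 CPM in [N] and 20.3, 37.2 and 83.7 CPM in [R], with 10 of 11 [R] cells below all [N] cells. The pocket protein genes RB1 and RBL2 differed by 0.82 and 1.23, and CDKN1B (p27) by -0.83. Over the 12 measured genes of this list 3 were past 2-fold higher and 2 lower, and CDKN1A and BTG2, which are also p53 targets, were 2 of the 3.

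DNA repair lists were close to the background. Of 36 homologous recombination genes 4 were higher and 4 lower, with a median of 0.14, and of 12 end joining genes 1 was higher, or 3 without [N] replicate 6, with a median of 0.20. BRCA1 (-0.18) was within 2-fold. BRCA2 differed by -1.05 and PALB2 by 1.36, but both differences changed sign when counts were summed over cells (0.01 and -0.28). [N] replicate 6 had 70.6 CPM of PALB2, and BRCA2 was at -0.05 without [R] replicate 2, 3, 6, 9 or 10.

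Outside these lists, the difference with the largest size among named genes without overlap was that of CYP1A1 (GRCh38.p14 chr15:74719542-74725528), a cytochrome P450 enzyme that oxidises polycyclic aromatic compounds and is a target of the aryl hydrocarbon receptor. It had 10.5, 23.8 and 103.9 CPM in [N] and 214, 407 and 1102 CPM in [R], a difference of 4.04. CYP1B1, a second enzyme of this family under the same receptor, had 2.39, 7.02 and 10.4 CPM in [N] and 12.4, 54.2 and 247 CPM in [R], a difference of 2.78. All 11 [R] cells were above all 6 [N] cells for both genes. In the p53-/- line the same differences were -0.65 and -2.69. In the stages between, CYP1A1 had medians of 77.4 CPM in [P], 36.3 CPM in [B] and 31.9 CPM in [S]. CYP1B1 had medians of 29, 12.9 and 8.78 CPM. All were above the [N] median and below the [R] median of their gene, and in [P] both genes were past 2-fold above [N].

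SLC2A1, the glucose transporter GLUT1, was likewise highest in [R]. It had 22.3, 81.4 and 193 CPM in [N] and 464, 940.2 and 1599 CPM in [R], with no overlap, and medians of 157, 329 and 247 CPM in [P], [B] and [S]. The list of 34 glycolysis and hypoxia genes had 16 members past 2-fold higher and 0 lower, with a median of 0.79 (p53-/- line, 0.20). PFKL, a phosphofructokinase, differed by 2.09, the lactate exporter SLC16A3 by 1.78 and the oxygen-sensing hydroxylase EGLN3 by 2.38, or by 1.71 without [R] replicate 2, 3, 4, 8 or 11. For PFKL and SLC16A3 the values were 3.39 and 2.86 without [N] replicate 1, 5 or 6 and 1.42 and 1.17 without [N] replicate 2, 3 or 4. The abundant enzymes of the pathway were near the background, with GAPDH at 0.17, LDHA at 0.24 and ALDOA at 0.12. Other hypoxia genes of the list, VEGFA (-0.10) and BNIP3 (0.35), were within 2-fold, and CA9 was not measured.

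Stress-responsive transcription factors were a second group that stood above the background. Of 27 AP-1 and immediate early genes, which respond within minutes to growth factors and stress, 16 were past 2-fold higher and 3 lower, with a median of 1.12 (p53-/- line, 0.13). ATF3 had 4.12, 9.0 and 18.7 CPM in [N] and 26.1, 129 and 378 CPM in [R], a difference of 3.71 with no overlap. Its medians were 134 CPM in [P], 162 CPM in [B] and 54.6 CPM in [S]. JUN (3.30) and CCN2 (3.25), a secreted target of the YAP coactivator, had [N] medians of 0.571 and 2.66 CPM, and CCN2 was above all [N] cells in 9 of 11 [R] cells. FOS was at -0.09. SRF, the transcription factor that drives many genes of this list, was lower in all 11 [R] cells, at 7.83 to 19.2 CPM in [N] and 0 to 7.74 CPM in [R].

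Epithelial structure genes formed another such group. The keratin list had a median of 1.48 with 6 of 9 measured members higher and 0 lower. It includes the keratin-associated protein gene KRTAP2-3 (2.84). KRT8 had 272, 1743 and 3479 CPM in [N] and 3656, 5721 and 11802 CPM in [R], and KRT19 had 262, 676 and 1119 CPM and 1144, 1884 and 4905 CPM, so neither overlapped. The gaps were narrow, at 3479 against 3656 CPM and at 1119 against 1144 CPM. No [N] cell had a KRT8 value near the median of 1743 CPM. The KRT8 difference was 1.71, or 3.0 without [N] replicate 1, 5 or 6 and 1.04 without [N] replicate 2, 3 or 4. Both have processed copies in the genome that the counting could have split. In the p53-/- line KRT8 differed by 0.15 and KRT19 by 0.11.

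Hemidesmosome, laminin and integrin genes, which anchor epithelial cells to the basement membrane, had 9 of 15 members higher and 0 lower, with a median of 1.26 (p53-/- line, 0.47). The laminin chain LAMA5 had 1.96, 5.14 and 7.53 CPM in [N] and 13.1, 38.7 and 198 CPM in [R]. LAMA3, a further laminin alpha chain, had 0.136, 1.55 and 2.17 CPM in [N] and 3.95, 14.7 and 33.8 CPM in [R]. Neither overlapped. LAMB3, a laminin beta chain, differed by 2.57, with 3 of 11 [R] cells above all [N] cells, and the hemidesmosome linker PLEC and the integrin ITGB4 differed by 2.04 and 1.75, or by 2.80 and 2.49 without [N] replicate 1, 5 or 6. LAMB3 differed by 2.06 in the p53-/- line.

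A RefSeq promoter of LAMA3 is shown because it was the only 1 of 10 available promoters of this list to hold an AP-1 site (TGANTCA, both strands). The list was searched with 1 promoter per gene, and 7.71% of all 35116 promoters hold the site. The LAMA3 window lies at GRCh38.p14 chr18:23872770-23873069 on the plus strand, and the 2 matches are in capitals, 125 and 69 bases before the start. This start is an internal one, within the gene's span of chr18:23689453-23955066. A match describes the letters of this window and not a bound site.
LAMA3 promoter: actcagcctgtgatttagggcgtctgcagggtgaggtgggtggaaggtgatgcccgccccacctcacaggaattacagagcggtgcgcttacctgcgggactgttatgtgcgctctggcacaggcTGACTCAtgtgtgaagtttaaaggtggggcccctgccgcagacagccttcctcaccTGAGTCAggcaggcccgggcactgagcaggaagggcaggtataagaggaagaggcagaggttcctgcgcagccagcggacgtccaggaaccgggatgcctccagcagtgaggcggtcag

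Junction genes had 9 of 21 members higher and 0 lower, with a median of 0.96 against 0.75 in the p53-/- line. PKP3, a desmosomal plaque protein, differed by 2.85, with 3.92 without [N] replicate 1, 5 or 6 and 2.24 without [N] replicate 2, 3 or 4. CDH1 (E-cadherin) had a median of 18.5 CPM in [N] and 57.1 CPM in [R], with 10 of 11 [R] cells above all [N] cells. DSG2, a desmosomal cadherin, did not overlap, at 42 to 80.2 CPM in [N] and 87.3 to 344 CPM in [R]. Markers of crypt-base stem cells were at -0.08, and PROM1 (CD133) differed by 1.18 and SOX9 by -0.50. Of 23 measured regenerative and fetal-like markers 8 were higher and 2 lower, with a median of 0.49 that was 0.14 with TMM scaling. CD44, a hyaluronan receptor, had medians of 252 and 699 CPM, with 10 of 11 [R] cells above all [N] cells.

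Among genes for secreted and surface molecules, THBS1, the matrix protein thrombospondin 1, had 3.37, 5.40 and 7.04 CPM in [N] and 21.4, 51.6 and 123 CPM in [R], and 8.37, 4.92 and 12.9 CPM as medians of [P], [B] and [S]. Tissue factor (F3), the starter of coagulation, differed by 2.20, the hyaluronan synthase HAS3 by 2.15, the receptor GPRC5A by 2.17 and the guanine deaminase GDA by 2.47. ARRDC3, an arrestin-like protein, differed by 2.65 and GANAB, a glucosidase of the endoplasmic reticulum, by 3.53. GANAB was at 1.99 and ARRDC3 at -1.30 in the p53-/- line. The GANAB value in the p53+/+ line was 5.13 without [N] replicate 1, 5 or 6 and 2.79 without [N] replicate 2, 3 or 4. Of 17 measured secreted senescence factors 9 were higher and 1 lower, with PLAU, the urokinase-type plasminogen activator, at 2.08. IL6, IL1A, IL1B and CXCL10 were not measured.

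CEACAM1, an adhesion molecule of epithelial cells, was read in 1 of 6 [N] cells and in 9 of 11 [R] cells, with a highest value of 1.54 CPM in [N] and a median of 21.5 CPM in [R]. Its medians in the p53-/- line were 0 in both stages. CD82, a tetraspanin, had medians of 0 and 16 CPM, with 10 of 11 [R] cells above all [N] cells.

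**Figure D4:**
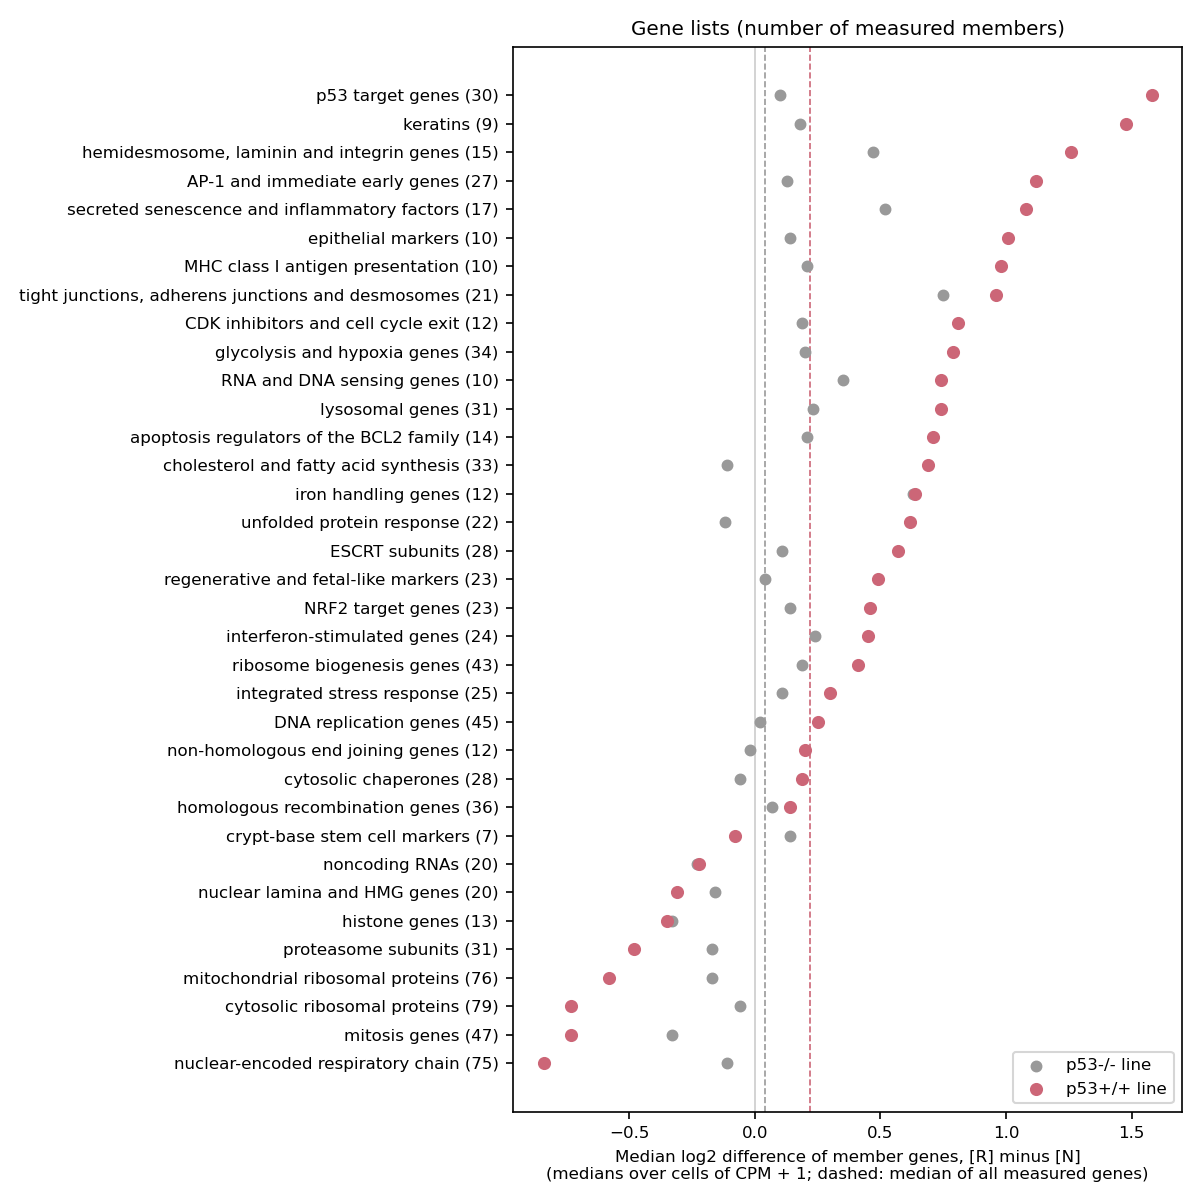
Median log2 difference of [R] minus [N] over the measured members of each gene list with at least 5 of them, in the p53+/+ line (red) and the p53-/- line (grey), with the median of all measured genes dashed. The p53+/+ values run from -0.84 for the respiratory chain to 1.58 for p53 target genes, and the p53-/- values from -0.33 to 0.75.

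The lists for translation and respiration had medians below that of all genes. The 79 cytosolic ribosomal protein genes had a median of -0.73 with 6 (7.59%, against 6.62% of all genes) past 2-fold lower and 0 higher, and they took 5.87% to 9.27% of the counts of [N] cells and 4.26% to 5.87% of those of [R] cells. The 75 nuclear-encoded respiratory chain genes had a median of -0.84 with 23 lower and 0 higher, and the 76 mitochondrial ribosomal proteins a median of -0.58 with 10 lower and 0 higher. In the p53-/- line these medians were -0.06, -0.11 and -0.17. With TMM scaling they were -1.05, -1.16 and -0.89 in the p53+/+ line, with 43, 47 and 33 members lower, where 1246 of all 10086 genes were lower. Without [N] replicate 6 the members lower numbered 12, 33 and 21. Taken as 1 level per cell, 10 [R] cells lay below all [N] cells for cytosolic and 7 for mitochondrial ribosomal proteins. For the respiratory chain only 1 did, and 10 lay within the [N] range. Its level was 7.79 to 8.98 in [N] and 7.71 to 8.17 in [R]. Examples of members past 2-fold lower are NDUFS6 of complex I, with medians of 347 and 142.5 CPM, RPS14, with 2029 and 929 CPM, and MRPL41, with 219 and 82.6 CPM. Of the stages, [R] had the lowest median ribosomal protein level, 9.0, against 9.73 in [N], 9.69 in [P], 10.10 in [B] and 10.21 in [S]. Ribosome biogenesis genes, which serve the making of rRNA, were at 0.41 with 11 of 43 (25.6%, against 17% of all genes) higher and 1 lower. With TMM scaling the median was 0.20 with 7 higher and 2 lower. By level per cell 10 [R] cells lay within the [N] range and 1 above it.

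Transcript length moved with these lists. Ribosomal protein and respiratory chain genes have median canonical transcripts of 785 and 763 nt, against 3211 nt for all measured genes. In the p53+/+ line the 593 genes of 500 to 1000 nt had a median difference of -0.69 and 20.6% of them were past 2-fold lower, the 1869 genes of 1000 to 2000 nt were at -0.01, and the 3477 genes of 2000 to 4000 nt at 0.43. The respective medians in the p53-/- line were -0.19, -0.13 and 0.11. The part of length in the list values was not tested. Members of the p53 target list had a median length of 2929 nt, in the bin at 0.43, and the mitosis genes one of 2862 nt. The 15 named genes with the largest differences without overlap had median lengths of 4191 nt among those higher in [R] and 1221 nt among those lower.

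**Figure D5:**
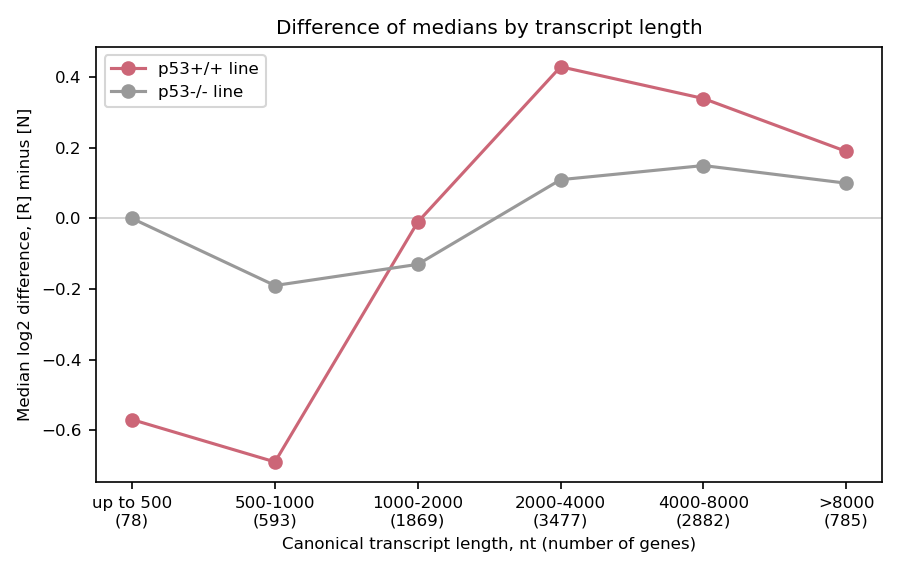
Median log2 difference of [R] minus [N] (y axis) over measured genes grouped by canonical transcript length (x axis, number of genes in parentheses), for the p53+/+ line (red) and the p53-/- line (grey). The p53+/+ median runs from -0.69 at 500 to 1000 nt to 0.43 at 2000 to 4000 nt.

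Among genes without overlap that were lower in [R], LGALS1 (galectin-1, a secreted lectin) had the largest difference at a mean of 20 CPM or more, with 616, 1182 and 1567 CPM in [N] and 178, 257 and 504 CPM in [R]. Its difference was -2.20 in the p53+/+ and 0.04 in the p53-/- line. The RNA-binding proteins YBX1 (-2.05), PABPC1 (-1.41) and PABPC4 (-1.29) and the initiation factor subunit EIF2S2 (-1.65) were lower in all 11 [R] cells. YBX1 had 308 to 507 CPM in [N] and 55.1 to 181 CPM in [R]. The others of the 15 were the chromatin proteins SSRP1 (-1.39) and CBX3 (-1.20), the actin-binding PFN1 (-1.27), the nucleolar NOP16 (-1.27), RANBP1 (-1.16), EMP3 (-1.32), CDC26 (-1.39), a subunit of the anaphase-promoting complex, ZNF22 (-1.41), PKIG (-1.36) and PTTG1. Reads of YBX1, PABPC1 and CBX3 may be shared with processed copies. PKIG, an inhibitor of protein kinase A, was also without overlap and lower in the p53-/- line (-1.15), and it was the only gene without overlap on the same side in both lines. Of all genes 0.565% were higher and 0.149% lower without overlap in the p53-/- line.

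Lists for lipid synthesis, lysosomes and antigen presentation had more members past 2-fold higher than the 17% of all genes, and fewer with TMM scaling. Cholesterol and fatty acid synthesis had 9 of 33 members higher and 0 lower and a median of 0.69 (p53-/- line, -0.11). Lysosomal genes had 12 of 31 higher and 1 lower, with PSAP, a precursor of sphingolipid activators, at 1.61 and 10 of 11 [R] cells above all [N] cells. MHC class I genes had 5 of 10 higher and 0 lower, with HLA-C at 1.41 and TAPBP, the peptide-loading chaperone tapasin, at 1.46, but B2M, the invariant light chain, was at -0.65. With TMM scaling the members higher numbered 6, 5 and 3 in these lists, where 1122 of all 10086 genes were. LGALS3BP, a secreted glycoprotein, had 55.9, 154 and 441 CPM in [N] and 420, 860.1 and 1164 CPM in [R].

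Interferon-stimulated genes of [R] cells were near those of [N] cells. Their level was 4.38 to 5.05 in [N] and 4.25 to 5.64 in [R], with medians of 4.78 and 4.91, and 4 of 24 measured members were higher and 1 lower. The ubiquitin-like ISG15 had medians of 316 CPM in [N], 359, 1548 and 899 CPM in [P], [B] and [S], and 184 CPM in [R]. IFI6 (0.34) and OAS3 (0.58) were within 2-fold. The RNA sensor DDX58 (RIG-I) differed by 1.61, with 4 of 11 [R] cells above all [N] cells. OAS1 was not measured.

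A list of 32 genes from the study's budding-associated panels, which is not the whole of them, had a median of 0.21, against 0.22 for all genes. Of these genes 9 (28.1%, against 17% of all genes) were past 2-fold higher and 0 lower. CST3 (cystatin C, a protease inhibitor) had medians of 101.5 CPM in [N], 477, 839.9 and 495 CPM in [P], [B] and [S], and 172 CPM in [R], a difference of 0.75. SNCG (gamma-synuclein) had medians of 55.1 and 62.7 CPM in [N] and [R]. CHMP2A (-0.71) and VPS28 (0.04), subunits of the ESCRT membrane scission machinery, were within 2-fold, and MYC differed by 0.66. Of the study's other lists, which the study chose and which are not independent evidence, the chemotherapy stress genes were at 1.02 with 28 of 53 higher, the EpiHR signature at 1.35 with 24 of 38 higher, senescence-raised genes at 0.55, senescence inflammatory genes at 0.27, MYC targets at -0.19 and mitotic cell cycle regulators at -0.44.

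Of 20 measured noncoding RNAs 3 (15%, against 17% of all genes) were past 2-fold higher and 0 lower, with a median of -0.22. Its member UCA1 was at 1.01. RN7SL1, RN7SL2 and RN7SL3, copies of the signal recognition particle RNA between which reads can be split, were at 2.62, 2.91 and 2.83, and at 1.90, 2.09 and 2.17 in the p53-/- line. RN7SL3 was not a member of the list. The mitochondrial 16S rRNA RNR2 had medians of 6382 and 14792 CPM with no overlap, whereas the 12S rRNA RNR1 differed by -0.17. Mitochondrial rRNA took 0.743% to 1.24% of counts in [N] cells and 1.13% to 6.0% in [R] cells. Its part in the other differences was not tested.

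By chromosome, the median difference ran from 0.01 on chromosome 13 (167 genes) to 0.34 on chromosome 17 (585 genes), a range of 0.33 around the 0.22 of all genes, with 96.2% of measured genes assigned by symbol.

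Both lines were also fitted together, with counts summed per stage and line so that each stage had n = 2 sums. Of 19894 genes tested with edgeR's quasi-likelihood test, none (0%) passed an adjusted p of 0.05 for [R] against [N], while 890 (4.47%) had a higher and 821 (4.13%) a lower value with a p below 0.05 before adjustment. With DESeq2 200 genes passed as higher and 180 as lower. The genes with the lowest adjusted p, 0.525 in edgeR, were chosen for naming after their values were seen and included CEACAM1 (5.61 ± 1.08 SE), RN7SL2 (2.39) and SLC7A5 (1.64), an amino acid transporter that was past 2-fold higher in both lines (2.64 and 1.73). The fitted value was 3.07 ± 1.36 SE (adjusted p = 0.577) for CDKN1A, which differed by 3.97 and 0.25 in the 2 lines, and 2.25 ± 0.80 SE (adjusted p = 0.562) for CYP1A1, which differed by 4.04 and -0.65. Whether the difference between stages differed between the lines could not be tested with 1 sample per stage and line.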

How the data were processed

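Counts per gene and cell were used as deposited by the authors, who trimmed reads with fastp and aligned them to GRCh38 with HISAT2 2.0. The study's methods name StringTie for expression estimates and RSEM with Bowtie2 for FPKM, but which tool wrote the deposited counts and its use of strand are not given in the sources used here, so a gene and its antisense partner cannot be told apart. Counts were divided by each cell's total to give CPM. Genes with a mean of at least 5 CPM over the 17 cells were kept, and medians over cells were compared as log2(CPM + 1) with a 2-fold threshold. The members and gene lists were chosen with earlier results of these data known. Named genes were the 15 largest differences in each direction among genes without overlap and with a mean of at least 20 CPM, up to 4 members a list with the largest differences, members that give a list's role, and genes the study names. Genes outside this rule are stated as such. The [R] against [N] contrast over both lines was fitted in edgeR 4.0.16 (R 4.3.3) with TMM scaling, robust quasi-likelihood tests and Benjamini-Hochberg adjustment, on 10 sums of counts over the cells of a stage and line. DESeq2 1.42.0 was the alternative. The difference of medians and the edgeR fit were tested on simulated data. Transcript lengths came from canonical transcripts and promoters from RefSeq. The alternatives were other scalings, pseudocounts, filters and summaries, thinning to 12486187 counts, and leaving out each cell. Results for some genes are not reported here.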

Additional observations from a re-analysis of the deposited data

Results flagged for a closer look

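Dixon's test was applied to 167 measures over the 6 [N] cells, and in 15 of them 1 cell lay far from the others. Its chance rate of about 1 in 20 holds for independent, normally distributed values. CPM of single cells and of related genes need not meet this, so the 15 cannot be read as an excess over it. In [N] replicate 6, the cell of the other title prefix, the level of histone genes was 5.13 against 6.04 in the nearest cell. The same cell had the highest value of 7 genes, with 265 CPM of PLK2 (nearest 44.2), 68.9 CPM of PLK3 (20.8), 15.6 CPM of JUN (0.789), 67.4 CPM of FOS (23.4), 30.3 CPM of LAMB3 (6.33), 127.1 CPM of PLEC (48.6) and 70.6 CPM of PALB2 (11.4). Several of these genes are those in which few [R] cells lay above all [N] cells. [N] replicate 5 stood apart in the signal recognition particle RNAs, with 417 CPM of RN7SL1 (134.6), 388 CPM of RN7SL2 (136.6) and 14.8 CPM of RN7SL3 (5.47). [N] replicate 1 stood apart in DDX58, with 19.6 CPM (6.18), SOX9, with 51.4 CPM (40.9), and CD82, with 2.22 CPM (0.592), and [N] replicate 2 in CEACAM1, with 1.54 CPM against 0 in all others.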

How the results depend on the processing

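Scaling and filters moved the totals. Genes past 2-fold higher numbered 1710, and 1122 with TMM scaling, 1099 with a pseudocount of 5 CPM and 1030 at a mean of at least 20 CPM. Genes past 2-fold lower numbered 668, and 1246 with TMM, 1089 with DESeq2 size factors, 337 with counts summed over cells, 421 with the pseudocount of 5 CPM, 1367 with no filter and 325 at 20 CPM. The share of genes without overlap ranged from 0.397% to 1.22% higher and from 0.188% to 1.05% lower when each cell was left out. It was 1.48% and 1.32% without both [N] replicate 6 and [R] replicate 1, a choice made after seeing the data, 0.182% and 0.123% with no filter, and 0.397% lower with TMM. The median of all genes was 0.00 with TMM and with no filter.

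List medians with TMM scaling were -1.05 for cytosolic and -0.89 for mitochondrial ribosomal proteins, -1.16 for the respiratory chain, -0.75 for proteasome subunits, 0.23 for the unfolded protein response, 0.14 for regenerative markers, 0.19 for NRF2 targets, 0.23 for ESCRT subunits, -0.41 for MYC targets and -0.12 for end joining. With DESeq2 size factors they were -0.98, -0.80, -0.71, 0.18 and 0.29 for cytosolic and mitochondrial ribosomal proteins, the proteasome, regenerative markers and ESCRT subunits. Means of log2(CPM + 1) gave 0.06 for interferon-stimulated genes and -0.32 for the proteasome, and summed counts gave 0.21 for NRF2 targets. With no filter the regenerative, secreted, chemotherapy stress and senescence-raised lists were at 0.30, 0.00, 0.00 and 0.16. At 20 CPM crypt-base markers were at 0.55 and secreted factors at 1.74. Leaving out each cell gave 0.69 to 1.3 for MHC class I, -0.56 to -0.32 for the proteasome, 0.12 to 0.62 for NRF2 targets and 0.20 to 0.66 for ESCRT subunits. Summed counts turned the sign of PALB2 (-0.28), OSGIN1 (-0.08) and BRCA2 (0.01). The cause of these shifts was not tested.

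In the fit over both lines DESeq2 called 200 genes higher and 180 lower, and edgeR with no filter on low counts called 129 and 57. With the cell line as a replicate block it called 0 and 0, and before adjustment 1035 and 1044 genes had a p below 0.05. Depth sets the counting error of reads, but with 1 sample per stage and line the spread between cultures is unknown.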
